A study of Mus musculus with 10 samples.

Results

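The octamer TTACGTAA is the site of the PAR bZIP factors, and it differs from the cAMP response element (CRE) TGACGTCA at base 2 and base 7. The members described here are 8-mers that keep bases 2 to 6 of that octamer (TACGT, the core) but do not follow a T: the base just before the core, the outer base, is A, C or G. They were selected by sequence from all 8-mers merged with their reverse complement. An 8-mer was taken if it held TACGT on either strand, and left out if it held TTACGT or TGACGT on either strand. This gave 179 of 32896 8-mers, all of them scored. Of these, 44 had A as the outer base, 44 had C and 44 had G, 3 had different outer bases on the 2 strands, and in 44 the core began the 8-mer, so that the outer base lay outside it. Interest in these sequences came from 8-mers with C before the core that fell with DNA methylation for CEBPB(V285A). That comparison is therefore described below with no test.

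The series measured binding on protein binding microarrays, where a tagged protein is laid over a large set of short duplex DNA probes and the bound signal of each spot is read. There were 10 arrays in 5 groups of 2. On unmethylated DNA the proteins were wild-type mouse CREB1 and the mutants CREB1(A297V) and CEBPB(V285A), and the 2 mutants were also bound to DNA whose CG cytosines had been methylated for 3 h with the enzyme M.SssI. Each protein was a GST-tagged bZIP DNA-binding domain made in a cell-free system, not a full-length factor from cells, and CREB1 on methylated DNA was not analysed here.

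The bZIP proteins bind DNA as dimers of long helices, with a basic region in each helix that lies in the major groove and reads its own side of a short palindrome. CREB1 is the transcription factor that responds to cAMP signalling through the CRE, CEBPB is a C/EBP factor of liver and fat cell differentiation, and the PAR factors DBP, TEF and HLF act in circadian and liver gene control. CEBPB(V285A) has alanine in place of a valine of the basic region, and CREB1(A297V) has valine in place of an alanine, the reverse exchange. The outer base is the first base of each side of the palindrome, and the CG at the centre of the core is the site that M.SssI modifies.

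The sequences below show what was changed. All but the CRE hold the core on both strands (TACGTA), with the outer bases in capitals. The first is the PAR octamer, the second the CRE, where the capitals mark instead the bases that set it apart from the PAR octamer, the next 3 are the palindromes with C, A or G outside, and the last 3 have different outer bases on the 2 strands.
TTACGTAA: TtacgtaA
TGACGTCA: tGacgtCa
CTACGTAG: CtacgtaG
ATACGTAT: AtacgtaT
GTACGTAC: GtacgtaC
ATACGTAG: AtacgtaG
ATACGTAC: AtacgtaC
CTACGTAC: CtacgtaC

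Each octamer lies at different places in many probes, whose variable part has 35 bases. The probes below are those with the median log2 signal, averaged over the arrays, among the probes of each palindrome, with the site in capitals. For the 3 palindromes with a changed outer base only probes free of TTACGT and TGACGT were considered, of which there were 15, 18 and 17.
TTACGTAA probe: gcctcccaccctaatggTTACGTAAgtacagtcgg
CTACGTAG probe: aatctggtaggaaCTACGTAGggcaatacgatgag
ATACGTAT probe: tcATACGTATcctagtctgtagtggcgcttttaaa
GTACGTAC probe: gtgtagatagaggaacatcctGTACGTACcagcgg

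For the CTACGTAG probe the log2 signal over the surrounding spots was 1.77 and 2.07 on the CREB1 arrays and 2.91 and 2.53 on the unmethylated CEBPB(V285A) arrays. It was -0.05 and -0.26 on the unmethylated CREB1(A297V) arrays. On methylated DNA it was 0.11 and 0.74 for CEBPB(V285A) and 0.13 and 0.76 for CREB1(A297V). This probe thus stood above its surroundings on all 4 unmethylated arrays of CREB1 and CEBPB(V285A), and at or below them on the unmethylated CREB1(A297V) arrays. The TTACGTAA probe stood at 1.52 or more on all 10 arrays. On unmethylated DNA the ATACGTAT probe gave 1.91 and 1.36 with CREB1, 1.07 and 0.87 with CEBPB(V285A), and 1.36 and 1.39 with CREB1(A297V). The GTACGTAC probe rose with methylation for CEBPB(V285A), from -0.02 and 0.14 to 0.98 and 0.82. In both of these a single probe went against the order given below for its octamer.

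All levels below are Z-scores, the score of an 8-mer within an array. A Z-score is the median log2 signal of the probes that hold the 8-mer, centred on the median of all 8-mers and divided by the spread of all 8-mers of that array. Values are mean ± SD with n = 2 arrays per group, and the labels do not say that replicates came from separate protein preparations, so p-values measure the spread between these arrays, which may be technical. The median spot signal ranged from 345 to 1857 over the arrays, and the spread that divides the Z-score from 0.112 to 0.265 on the log2 scale, being smallest for unmethylated CREB1(A297V). A difference in Z between groups is therefore given with the difference in log2 signal over the array median where the scale matters. Array identifiers were read from the names of the deposited tables, and the sample titles do not state them. By that reading the CREB1 and CREB1(A297V) arrays on unmethylated DNA carry a common array identifier and unmethylated CEBPB(V285A) another. The methylated groups of both mutants carry yet another. Where CREB1(A297V) was bound to methylated DNA, 0% of probes had the array position they had on the first CREB1 array, against 100% in the other groups.

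The palindrome with C outside, CTACGTAG, was among the strongly bound sequences of CREB1 and of CEBPB(V285A) on unmethylated DNA. Its Z was 9.94 and 11.0 on the CREB1 arrays, which ranked it 61 among all 8-mers, and 13.4 and 9.55 on the CEBPB(V285A) arrays, rank 66. For CREB1(A297V) it was 0.902 and 0.796, rank 6778. The groups did not overlap: the lowest of the 4 arrays of the first 2 proteins stood at 9.55 and the higher CREB1(A297V) array at 0.902. In signal, CTACGTAG stood 3.12-fold over the array median for CREB1, 5.06-fold for CEBPB(V285A) and 1.08-fold for CREB1(A297V).

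The palindrome with A outside, ATACGTAT, had levels that lay closer together across the 3 proteins. On unmethylated DNA CREB1 gave 6.79 and 8.20, CEBPB(V285A) 6.73 and 6.53, and CREB1(A297V) 1.69 and 4.02. Here the 2 replicates of CREB1(A297V) were far apart, and the higher of them was below every array of the other proteins. On methylated DNA it stood at 3.77 and 2.85 for CEBPB(V285A) and at 2.62 and 2.28 for CREB1(A297V).

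The palindrome with G outside, GTACGTAC, was the weakest of the 3 on all 10 arrays in these scores, and under the 8 other ways of scoring it was below CTACGTAG on 8 to 10 arrays and below ATACGTAT on 10. Unmethylated arrays gave a Z of 2.86 and 3.04 with CREB1, 1.62 and 1.25 with CEBPB(V285A), and 0.268 and -0.936 with CREB1(A297V). Methylated arrays gave 0.522 and 0.878 for CEBPB(V285A), and 0.462 and 0.000282 for CREB1(A297V). Apart from CREB1, where the signal was 1.38-fold the array median, GTACGTAC lay within 1.22-fold of that median in every group.

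All 3 palindromes were below TTACGTAA on all 10 arrays. The gap between TTACGTAA and CTACGTAG was smallest for CREB1, at 4.84 and 4.97. On unmethylated DNA it was 12.1 and 15.9 for CEBPB(V285A) and 18.2 and 23.2 for CREB1(A297V). On methylated DNA CEBPB(V285A) had gaps of 16.7 and 21.8, which overlap those of unmethylated CREB1(A297V), and CREB1(A297V) had 22.2 and 25.9. The order of C and A differed between proteins. On unmethylated DNA CTACGTAG was above ATACGTAT by 2.95 ± 0.268 with CREB1 and by 4.86 ± 2.60 with CEBPB(V285A), on 2 of 2 arrays each, while with CREB1(A297V) the difference was -2.00 ± 1.73, below on 2 of 2 arrays. On methylated DNA the 2 palindromes did not differ beyond their spread for CEBPB(V285A), at -0.254 ± 1.95, and they lay within 0.272 units of each other on both CREB1(A297V) arrays. With 2 arrays in a group an exact permutation test of 2 groups cannot give a p below 0.333, so these orders are descriptions.

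On unmethylated DNA the 3 octamers with different outer bases had means between those of the highest and lowest palindromes. For CREB1, ATACGTAG stood at 7.78 ± 1.81, ATACGTAC at 6.23 ± 1.50 and CTACGTAC at 5.90 ± 1.82. ATACGTAG was the highest of them on both arrays, at 6.50 and 9.06. On the same arrays ATACGTAC gave 5.17 and 7.29, and CTACGTAC 4.61 and 7.19. For CEBPB(V285A) on unmethylated DNA they were at 7.47 ± 0.694, 4.40 ± 1.01 and 6.69 ± 1.74. With CREB1(A297V) all 3 were at 2.28 or lower on both unmethylated arrays. On methylated DNA ATACGTAG had a higher mean than all 3 palindromes for CEBPB(V285A), with arrays at 4.54 and 3.88. CTACGTAG stood at 2.14 and 3.98 there, so it was below ATACGTAG on replicate 1 and above it on replicate 2.

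Over all 179 members on unmethylated DNA, CREB1 had a median Z of 4.62 ± 0.884, CEBPB(V285A) of 4.38 ± 0.523 and CREB1(A297V) of 1.21 ± 0.287. On methylated DNA the medians of the mutants were 2.44 ± 0.0817 (CEBPB(V285A)) and 1.38 ± 0.0876. A mean Z of at least 3 on unmethylated DNA was reached by 148 members (82.7%) with CREB1, by 132 (73.7%) with CEBPB(V285A) and by 9 (5.03%) with CREB1(A297V). On methylated DNA the counts were 56 (31.3%) and 8 (4.47%). Among all 8-mers that share was 1.68% to 3.50% in the 5 groups.

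By outer base, G gave the lowest median in every group, and the order of A and C differed between proteins. For CREB1 the median was 5.08 ± 0.815 with A, 4.92 ± 1.13 with C and 3.36 ± 0.492 with G. With CEBPB(V285A) it was 4.95 ± 0.462, 5.11 ± 0.533 and 2.58 ± 0.190 on unmethylated DNA, and 2.59 ± 0.025, 2.59 ± 0.220 and 1.68 ± 0.152 on methylated DNA. For CREB1(A297V) the medians were 1.61 ± 0.290, 1.04 ± 0.344 and 0.673 ± 0.0368 on unmethylated DNA, and 1.59 ± 0.0823, 1.33 ± 0.155 and 0.842 ± 0.226 on methylated DNA. The median with A was above that with G on 10 of 10 arrays, by 0.526 to 2.56, and the median with C on 10 of 10, by 0.145 to 2.78. For CREB1(A297V) the median with C was below that with A on both unmethylated arrays (differences of -0.612 and -0.535) and on both methylated arrays (-0.428 and -0.0929). For unmethylated CEBPB(V285A) it was above that with A on both arrays, by 0.113 and 0.214, and for CREB1 and methylated CEBPB(V285A) it was above on 1 of 2 arrays. Under the other ways of scoring, A was above G on 10 of 10 arrays, C above G on 8 to 10 and C above A on 2 to 5. The order of C and A for unmethylated CEBPB(V285A) did not hold without the probes that hold TTACGT or TGACGT. There its arrays gave 4.36 and 4.36 with A and 4.66 and 3.99 with C.

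The outer bases were also compared in 8-mers alike in all but that base, which gave 43 pairs for each choice of bases. On unmethylated DNA, A was above G in 38 of 43 pairs with CREB1, 39 with CEBPB(V285A) and 37 with CREB1(A297V). C was above G in 38, 41 and 26 of 43 pairs in the same order, and C above A in 19, 23 and 10. For CREB1(A297V), C was therefore mostly below A in paired sequences. Pairs overlap in sequence and come from the same arrays, and the counts carry no test.

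Scores also varied with the base after the core, where A completes the palindrome TACGTA. Over the 18 members with A after the core CREB1 had a median of 6.90 ± 1.26 and unmethylated CEBPB(V285A) of 6.80 ± 1.17. Over the 40 members with T there it was 3.68 ± 0.506 and 3.23 ± 0.462. For CREB1(A297V) the medians were 1.49 ± 0.509 and 1.46 ± 0.0181, which do not differ beyond their spread. With C outside and A after the core the 5 members reached a median of 9.05 ± 2.72 for CREB1 and 10.9 ± 1.92 for CEBPB(V285A), against 3.62 ± 0.709 and 2.99 ± 0.369 over the 8 members with C outside and T after it.

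Beyond the outer base, the sequence context still shifted the score of the full core. With C as the outer base, CCTACGTA was the strongest member for CREB1, at 10.2 and 11.9, and for CEBPB(V285A), at 13.4 and 11.8 on unmethylated DNA. With a G in place of its first base, GCTACGTA stood at 6.42 ± 1.37 and 6.67 ± 1.07 for the same 2 proteins. With A as the outer base, CATACGTA led at 10.1 ± 1.09 and 10.7 ± 0.141, and GATACGTA stood at 5.71 ± 0.819 and 4.64 ± 0.320. For the outer bases A and G, a G before the outer base gave a lower Z than A, C or T did on 10 of 10 arrays. For the outer base C this held on 9, 8 and 6 of 10 arrays against A, C and T.

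For the outer base G the strongest member was ACGTACGT, which holds the core with a G before it on both strands and a further CG. On unmethylated DNA its Z was 7.05 and 9.60 with CREB1, 9.93 and 7.67 with CEBPB(V285A), and 0.514 and 0.745 with CREB1(A297V). On methylated DNA it was 4.48 and 3.81 for CEBPB(V285A). For CREB1(A297V) the leading members by outer base were others: TATACGTA at 3.41 ± 1.62, CTACGTGT at 2.88 ± 1.38 and TAGTACGT at 3.04 ± 0.0109 on unmethylated DNA. On methylated DNA CTACGTGT led the outer base C for CEBPB(V285A), at 5.12 ± 0.688, and ACTACGTA for CREB1(A297V), at 3.80 ± 0.291, where CATACGTA (3.24 ± 0.529) and TAGTACGT (2.93 ± 0.134) led the other outer bases.

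Among members whose outer base lay outside the 8-mer, TACGTGTA, TACGTTAC and TACGTGAA had the highest mean over the groups. On unmethylated DNA TACGTGTA stood at 6.21 and 8.88 with CREB1, 8.84 and 7.61 with CEBPB(V285A), and 2.09 and 4.68 with CREB1(A297V). TACGTTAC was nearly level in Z across the proteins, at 5.83 and 6.50, 6.65 and 5.39, and 4.05 and 5.58 in the same order. In signal it was less level, at 1.95-fold, 2.34-fold and 1.52-fold over the array median. On methylated DNA its Z was 5.54 and 5.71 for CREB1(A297V). TACGTGAA was at 5.44 and 6.51 for CREB1, and at 6.31 and 3.74 for methylated CEBPB(V285A), where the replicates differed. In these members a T before the core is possible in the probes, and 23, 25 and 26 of the 34 probes of each were free of TTACGT and TGACGT.

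The substitution in CREB1 was compared first, on arrays that share no array with the comparison that drew attention to the members. CREB1(A297V) was below CREB1 at 179 of 179 members on unmethylated DNA, with a median difference of -3.23 in Z and -0.53 in log2 signal over the array median. Differences were tested with limma over all 8-mers, and a member was called at a Benjamini-Hochberg adjusted p below 0.05. Of the members 171 (95.5%) were called lower and 0 higher, against 10.8% called lower and 8.13% called higher among all 8-mers. By outer base 43 of 44 with A, 44 of 44 with C and 41 of 44 with G were called lower, together with all 3 members of mixed outer bases and 40 of 44 with the outer base outside. Over all 8-mers the median difference was 0.0221.

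CTACGTAG had the largest difference among the members, -9.60 ± 0.975 (SE, limma adjusted p = 1.31e-05). It was followed by CCTACGTA, which stood at 2.28 ± 0.618 for CREB1(A297V) against 11.0 ± 1.23, a difference of -8.77 ± 0.879. ACGTACGT differed by -7.70 ± 0.803, GACTACGT by -7.65 ± 0.800 and ACTACGTA by -7.39 ± 1.02. Thus 4 of the first 5 have C as the outer base. ATACGTAT differed by -4.65 ± 0.712 (limma adjusted p = 0.000214) and GTACGTAC by -3.28 ± 0.351 (limma adjusted p = 1.76e-05). The other 3 octamers were called lower too, with differences of -6.22 for ATACGTAG, -5.05 for CTACGTAC and -4.85 for ATACGTAC.

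The 8 members without a call were below CREB1 as well but by less. Chosen after their values were seen, they were TACGTTAC, AATACGTT, GTACGTTA, AGTACGTT, TACGTTCC and GTACGTTC, which have T after the core, and TACGTCCA and TACGTCCC. By the base after the core, all 18 members with A, all 40 with G and 31 of 33 with C were called lower, and 34 of 40 with T. For comparison, the 8-mers that keep the T outside (TTACGT) were called lower in 23 of 48 cases with a median difference of -2.54, and those with TGACGT in 46 of 48 with a median of -9.71. The difference between these lists was not tested. The SE of the fit was wide for strong 8-mers, 12.1 for TTACGTAA and 11.1 for TGACGTCA. TGACGTCA differed by -16.3 (limma adjusted p = 0.331), with SDs of 2.42 for CREB1 and 2.58 for CREB1(A297V). A count of calls in these lists therefore does not measure the size of the change.

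The 2 mutants differed widely on unmethylated DNA. CEBPB(V285A) was above CREB1(A297V) at 177 of 179 members, by a median of 3.02 in Z and 0.72 in log2 signal. Of the members 164 were called higher and 0 lower (limma), where 14.1% and 11.5% of all 8-mers were called. The unmethylated CEBPB(V285A) arrays also enter the comparison that drew attention to the members, and the 2 groups carry different array identifiers, so that identifier and mutant cannot be told apart. The CREB1(A297V) arrays are those of the comparison above, so the counts of the 2 comparisons are not independent.

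By outer base 42 of 44 members with A, 44 of 44 with C and 36 of 44 with G were called higher for CEBPB(V285A). CTACGTAG was higher by 10.6 ± 0.975 (SE, limma adjusted p = 1.87e-06), CCTACGTA by 10.3 ± 0.879 and ACTACGTA by 9.56 ± 1.02. Interest began with 8-mers with C before the core, through values that include these unmethylated CEBPB(V285A) arrays. The counts and p-values of members with C here are therefore not independent of that choice. GACTACGT stood at 8.70 ± 1.19 against 0.222 ± 0.419, and ACGTACGT at 8.80 ± 1.60 against 0.630 ± 0.164. Of the palindromes, ATACGTAT was higher by 3.77 ± 0.712 (limma adjusted p = 0.000828) and GTACGTAC by 1.77 ± 0.351 (limma adjusted p = 0.00126). Among 8-mers with TTACGT 38 of 48 were called higher, and among those with TGACGT 45 of 48.

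The comparison of the series title, CEBPB(V285A) with CREB1, gave few calls on these members. In Z the median difference over the 179 members was -0.0887, with 82 above 0 and 97 below, while in log2 signal over the array median it was 0.18. With a common scale for all arrays the median became 0.943 and 69 members were called higher and 2 lower, and with normexp background correction it became -1.55 and 79 were called lower, so no direction can be given. In the tested scores 7 members were called lower and 0 higher (limma), against 2.53% and 3.67% of all 8-mers. That share, 3.91%, is near the background.

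Of the 7 called members, 6 have G as the outer base. The first 5 were GAGTACGT (2.22 ± 0.228 for CEBPB(V285A) and 4.31 ± 0.915 for CREB1, limma adjusted p = 0.00698), GGATACGT (3.36 ± 0.290 and 5.42 ± 1.35), GTACGTAC (1.43 ± 0.262 and 2.95 ± 0.128, limma adjusted p = 0.0156), CCGTACGT (1.70 ± 0.121 and 3.12 ± 0.543) and GTACGTGC (1.18 ± 0.104 and 2.48 ± 0.819). Without either of the unmethylated CEBPB(V285A) arrays 0 members were called, and 12 to 17 were called lower without CREB1 replicate 1 or either unmethylated CREB1(A297V) array. Without CREB1 replicate 2 the calls turned to 8 higher and 0 lower, with 0 of the 7 among them. CTACGTAG differed by 1.04 ± 0.975 (limma adjusted p = 0.573) and ATACGTAT by -0.873 ± 0.712 (limma adjusted p = 0.506), so neither passed the test. With a common scale CTACGTAG was called higher (3.69, limma adjusted p = 0.00564) and with normexp lower (-3.92, limma adjusted p = 0.0215), and ATACGTAT was called lower with normexp (-2.99, limma adjusted p = 0.00903). The array identifier differs between these 2 proteins and cannot be told apart from them. Across the 179 members, which share probes, the mean Z of CREB1 and of CEBPB(V285A) on unmethylated DNA correlated at r = 0.936 (Spearman 0.914), that of CREB1 and CREB1(A297V) at 0.504 (Spearman 0.539). The replicates of the same 3 groups correlated at 0.933 (CREB1), 0.944 and 0.761 over these members.

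With CEBPB(V285A) the members had lower scores on methylated DNA, the response by which these sequences came to attention. In Z the difference between methylated and unmethylated DNA was below 0 at 175 of 179 members. Its median was -1.85 in Z and -0.26 in log2 signal. By outer base the median was -2.02 with A, -2.66 with C and -1.14 with G. CTACGTAG went from 13.4 and 9.55 to 2.14 and 3.98, from 5.06-fold to 1.74-fold over the array median. ATACGTAT went from 6.73 and 6.53 to 3.77 and 2.85, and GTACGTAC from 1.62 and 1.25 to 0.522 and 0.878. In none of the 3 did the 2 groups overlap. These values chose the members, so they carry no test, and array identifier and methylation cannot be told apart.

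The 4 members above 0 in Z in that comparison, named after their values were seen, were TACGTCGC (4.90 to 5.69), CCGTACGT (1.70 to 2.29), GTACGTCC (0.557 to 0.758) and TACGTCCC (0.290 to 0.368). The first 2 of them hold a second CG. The count of 4 depends on the scale, since some members below 0 in Z were above 0 in log2 signal. Among these were TACGTGAA (-1.16 in Z and 0.04 in log2 signal) and TACGTGTC (-0.763 and 0.08). Over the 21 members with 2 CG the median difference was -1.16, and over the 158 with 1 CG it was -1.88. The 8-mers that keep the T outside had a median difference of -0.46 in Z and 0.30 in log2 signal, so the direction for that list depends on the scale. The 8-mers with TGACGT fell in Z at 48 of 48, with a median of -4.48 in Z and -0.51 in log2 signal. TGACGTCA itself differed by -4.34 in Z but by 0.17 in log2 signal. A fall with methylation was therefore not particular to the members. At the level of probes, the median log2 signal over surroundings was taken for CEBPB(V285A). Probes with TTACGT stood at 1.50 ± 0.08 on unmethylated and 1.85 ± 0.05 on methylated DNA, and those with TGACGT at 2.41 ± 0.24 and 1.95 ± 0.03. Probes with CTACGT went from 1.06 ± 0.14 to 0.71 ± 0.01, with ATACGT from 0.93 ± 0.07 to 0.68 ± 0.02 and with GTACGT from 0.55 ± 0.02 to 0.42 ± 0.0045.

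For CREB1(A297V) few members were called changed with methylation. The median difference was 0.171 in Z and 0.13 in log2 signal, with 107 members above 0 and 72 below in Z. The spread that divides the Z-score was 0.112 to 0.146 on these unmethylated arrays and 0.197 to 0.199 on the methylated ones. Counts and calls here refer to Z, and the sign for a member can differ in log2 signal. In Z the median was -0.0307 with normexp background correction and -0.126 without unmethylated CREB1(A297V) replicate 1, so it has no settled direction. Of the members 2 were called higher and 5 lower (limma), against 10.4% and 11.1% of all 8-mers, so the share of members called was below the background in either direction. The number called ranged from 0 to 40 under other settings, with 38 higher and 2 lower on a common scale. Without a methylated CREB1(A297V) array 2 or 0 members were called, and without a CREB1 array 19 or 21. The 2 called higher were TACGTCTT, at 1.44 ± 0.372 against 0.117 ± 0.354, and GGTACGTA, at 1.11 ± 0.0635 against -0.193 ± 0.155. The 5 called lower were GAGTACGT (difference -1.87 ± 0.422), TACGTGCT (-1.47 ± 0.356), AGTACGTT (-1.45 ± 0.420), CTACGTGC (-1.30 ± 0.434) and CGTACGTT (-1.21 ± 0.335). All 7 lie at Z between -0.310 and 2.80 in both groups. Among the 8-mers that keep the T outside, 22 of 48 were called higher and 0 lower, with a median difference of 2.46. Among those with TGACGT 0 of 48 were called, though 46 were above 0 and the median difference was 1.99. Array identifier and methylation cannot be told apart here, and the probe positions differ between these 2 groups.

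CTACGTAG stood at 0.902 and 0.796 on unmethylated and at 2.65 and 2.55 on methylated DNA for CREB1(A297V). The groups did not overlap, but the difference of 1.75 ± 0.975 did not pass the test (limma adjusted p = 0.208). With only these 2 groups in the fit the adjusted p was 0.00944. ATACGTAT differed by -0.402 ± 0.712 (limma adjusted p = 0.727) and GTACGTAC by 0.565 ± 0.351 (limma adjusted p = 0.263). In log2 signal the difference of ATACGTAT was 0.14, opposite in sign to that in Z.

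With both mutants on methylated DNA, CEBPB(V285A) was above CREB1(A297V) at 170 of 179 members, by a median of 0.950 in Z and 0.32 in log2 signal. Of the members 35 (19.6%) were called higher and 0 lower (limma), against 6.75% and 5.49% of all 8-mers. These CEBPB(V285A) arrays also enter the comparison that drew attention to the members. Both groups carry a common array identifier, as read from the names of the deposited tables, but their probe positions differ, so position and mutant cannot be told apart. The count was 2 to 9 when any single array of the 2 groups was left out, and 53 or 54 without a CREB1 array. It was 17 with signal over background, 102 with only these groups in the fit and 141 with a common scale. None of the 6 octamers was called in the tested scores, where ATACGTAG was closest, at 4.21 ± 0.470 against 1.96 ± 0.225 (limma adjusted p = 0.0553). That call depended on the setting: the limma adjusted p of ATACGTAG was 6.66e-06 with a common scale, 9.13e-05 with only these groups in the fit, 0.0194 with normexp or quantile normalization and 0.0367 without spatial correction. It was 0.0471 with the replicate block, and 0.0120 to 0.0344 when one of the unmethylated CREB1 or CREB1(A297V) arrays was left out. CTACGTAC was called with a common scale and with only these groups in the fit, and ATACGTAT with a common scale. CTACGTAG differed by 0.460 ± 0.975 (limma adjusted p = 0.81).

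The members called on methylated DNA were mostly those with C or G after the core. Of the 33 members with C there 17 were called higher, of the 40 with G 10, of the 40 with T 2 and of the 18 with A 1. The highest differences belonged to TACGTCGC (5.69 ± 0.597 against 1.85 ± 0.481, limma adjusted p = 0.000244), CATACGTC (3.77 ± 0.831 against 1.13 ± 0.215), ATACGTCG (3.25 ± 0.408 against 0.618 ± 0.433), TACGTGAC (4.98 ± 0.0113 against 2.36 ± 0.314) and TACGTCGT (4.49 ± 0.434 against 1.90 ± 0.0302). In TACGTCGC, ATACGTCG and TACGTCGT the core is followed by CG.

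Many of the probes that hold a member also hold a stronger site. Of the 2003 probes that hold a member, 587 also hold TTACGT or TGACGT. On unmethylated DNA those 587 had a median log2 signal over surroundings of 1.15 ± 0.05 with CREB1, 1.79 ± 0.11 with CEBPB(V285A) and 0.48 ± 0.02 with CREB1(A297V). The other 1416 had medians of 0.55 ± 0.04, 0.60 ± 0.05 and 0.10 ± 0.0042. When probes with either hexamer were left out of the scores, the median Z over the members became 4.28 ± 0.809, 3.79 ± 0.354 and 0.906 ± 0.305. On methylated DNA it became 2.06 ± 0.146 for CEBPB(V285A) and 0.966 ± 0.146 for CREB1(A297V). A mean Z of at least 3 was then reached by 143, 116 and 3 members on unmethylated DNA. On methylated DNA it was reached by 27 (15.1%) for CEBPB(V285A) and by 1 (0.559%) for CREB1(A297V). Among all 8-mers in those scores that share was 1.47% to 2.92%. For CREB1 the medians in those scores were 4.87 ± 0.948 with A, 4.62 ± 1.13 with C and 3.22 ± 0.332 with G. G stayed below A and C on 10 of 10 arrays, while C was above A on 2 of 10 arrays, against 4 of 10 with all probes.

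Within a probe, the signal also varied with where the core lay. Medians over probes of the log2 signal over surroundings were compared among the 1334 probes with a single core and neither hexamer. Those with the centre of the core after base 9 to 14 of the variable region had the highest medians. These were 1.09 ± 0.09 with CREB1 and 1.69 ± 0.25 with unmethylated CEBPB(V285A). With the centre after base 27 to 33 the medians were 0.15 ± 0.0047 and 0.11 ± 0.03. CREB1(A297V) had 0.21 ± 0.07 and 0.02 ± 0.02. In the probes with the core after base 9 to 14 the outer bases stood at 1.28 ± 0.21 (C), 1.17 ± 0.12 (A) and 0.92 ± 0.01 (G) for CREB1, and at 2.04 ± 0.38, 1.78 ± 0.14 and 1.13 ± 0.07 for CEBPB(V285A). C was above A on both arrays, at 1.13 and 1.43 against 1.08 and 1.25 for CREB1. For CEBPB(V285A) it was 2.32 and 1.77 against 1.88 and 1.68. G was the lowest in both proteins. This did not hold for unmethylated CREB1(A297V), at 0.20 ± 0.09 (C), 0.26 ± 0.07 (A) and 0.23 ± 0.02 (G). On methylated DNA CREB1(A297V) had 0.35 ± 0.09, 0.35 ± 0.09 and 0.34 ± 0.03 in the same order, and CEBPB(V285A) 1.00 ± 0.04, 1.03 ± 0.13 and 0.72 ± 0.01.

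The spread over the probes of a single octamer was wide. The mean log2 signal over the surrounding spots of the 17 CTACGTAG probes ran from 0.13 to 2.39 for CREB1, with 13 probes at a 2-fold signal or more, and from -0.10 to 3.62 for CEBPB(V285A) on unmethylated DNA, with 15. For CREB1(A297V) it ran from -0.25 to 0.52, with 0 of 17 at 2-fold. On methylated DNA 7 of 17 probes for CEBPB(V285A) and 3 of 17 for CREB1(A297V) reached 2-fold.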

How the data were processed

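Binding of 3 bZIP domains was analysed on 10 arrays, 2 per group. Per the file headers, the deposited tables hold each spot's median signal intensity and median background intensity on a linear scale, with no normalization stated. A second deposited table holds the authors' own 8-mer scores (Z-scores), used as an alternative. The scanner, spot filters and score software are not given in the sources used here.

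The log2 signal of each of 40330 probes was lowered by the median of the 15 by 15 spots around it. An 8-mer was scored as the median over the probes that hold it on either strand, at least 8 being required. All 32896 passed, and the members had 17 to 38 probes. Scores were centred on the array median over 8-mers and divided by the scaled median absolute deviation.

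Groups were compared with limma 3.58.1 in R 4.3.3 (lmFit, eBayes with a variance trend), with all 10 arrays, a coefficient per group, 5 residual degrees of freedom and no replicate block. Tests were two-sided, with Benjamini-Hochberg adjustment over all 8-mers, for 5 comparisons that share arrays. The scoring and the fit were tested on simulated data. The number of arrays limits the precision. Replicate numbers were not used to pair arrays. The deviations of same-numbered arrays correlated at -0.213 to 0.333 over 10 pairs of groups. The highest value was that of CREB1 and unmethylated CREB1(A297V), read above as carrying a common array identifier. With a replicate block that comparison gave 171 called members, as it did without.

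The members and lists were chosen with earlier results of these data known. The 8-mers named are the 6 octamers with the full core, the 5 highest and 5 lowest called members per comparison, the highest member per outer base and group, the first 3 members whose outer base lies outside, and TTACGTAA and TGACGTCA, besides those said to be chosen later. The alternatives tried were the authors' scores, a common scale, signal over background, normexp with an offset of 50, quantile normalization, no spatial correction, leaving out probes with TTACGT or TGACGT, leaving out dim probes, no variance trend, only the groups compared, the replicate block and each array left out.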

Additional observations from a re-analysis of the deposited data

Results flagged for a closer look

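For CTACGTAG the Z differed between methylated and unmethylated DNA in opposite directions for the 2 mutants. The difference was -8.43 for CEBPB(V285A), where both methylated arrays (2.14 and 3.98) were below both unmethylated arrays (13.4 and 9.55). It was 1.75 for CREB1(A297V), where both methylated arrays (2.65 and 2.55) were above both unmethylated arrays (0.902 and 0.796). The difference between the 2 responses was not tested, and the first of them is among the values that chose the members. In both proteins, array identifier and methylation cannot be told apart.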

How the results depend on the processing

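Lower calls for CREB1(A297V) against CREB1 numbered 154 to 175 under the 11 alternatives that keep all arrays and 150 to 173 with an array left out. Higher calls for CEBPB(V285A) against CREB1(A297V) on unmethylated DNA numbered 138 to 176 and 136 to 165. The replicate block gave 171, 8, 164, 38 and 10 calls in the order CREB1(A297V) against CREB1, CEBPB(V285A) against CREB1, the 2 mutants unmethylated, the 2 mutants methylated, and methylation for CREB1(A297V). It turned no call of these counts beyond 1.5 times, and of the single octamers only ATACGTAG on methylated DNA changed (adjusted p = 0.0471). The cause of the changes below was not tested, except that fewer arrays leave fewer degrees of freedom.

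Calls of CEBPB(V285A) against CREB1 numbered 17 with the authors' scores, 71 with a common scale, 79 with normexp, 26 with quantile normalization, 12 without a variance trend, 2 with only the groups compared and 0 to 17 with an array left out. Its median difference of -0.0887 was 0.617 with the authors' scores, 0.943 with a common scale, 0.140 with signal over background, -1.55 with normexp, 0.209 without spatial correction, 0.0713 without dim probes and -0.649 to 0.424 with an array left out. For ATACGTAG it was 1.63 with a common scale and for CTACGTAG -3.92 with normexp, both called and opposite in sign to the scores reported. For the 2 mutants on methylated DNA the calls numbered 141 with a common scale, 17 with signal over background, 102 with only the groups compared and 2 to 54 with an array left out. For methylation with CREB1(A297V) they numbered 0 with the authors' scores, 40 with a common scale, 1 with signal over background, 29 with quantile normalization, 2 without spatial correction, 14 without a variance trend, 21 with only the groups compared and 0 to 21 with an array left out. There the median difference was 0.681 with a common scale, -0.0307 with normexp and -0.126 to 0.424 with an array left out.

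The other median differences kept their sign. With the authors' scores, on a linear scale, they were -4.66 (CREB1(A297V) against CREB1), 5.42 (the mutants unmethylated), 1.73 (methylated) and -2.92 (methylation, CEBPB(V285A)). The mutants unmethylated gave 3.79 with a common scale, 2.12 with normexp and 2.32 with quantile normalization, and methylated 1.70 with a common scale and 0.804 with quantile normalization. Methylation for CEBPB(V285A) gave -1.22 with normexp. CTACGTAG minus ATACGTAT, chosen after seeing the data, was 8.85 (authors' scores), 2.47 (common scale), 3.40 (signal over background), 3.77 (normexp), 2.37 (quantile normalization), 3.55 (no spatial correction) and 2.57 (without dim probes) for CREB1, and 14.4 with the authors' scores for unmethylated CEBPB(V285A). For methylated CEBPB(V285A) it was -1.64 and 1.13 on the single arrays. For methylated CREB1(A297V) it was -0.374 with signal over background, -0.261 without spatial correction and -0.659 without probes with TTACGT or TGACGT. The median with A outside stayed above that with G on 10 of 10 arrays under the 8 other scores, and that with C on 8 to 10.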
